A study of Mus musculus with 69 samples.

Results

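The heat shock genes described here are 10 genes of the cytosolic and mitochondrial protein folding machinery: Hsf1, Hspa1a, Hspa1b, Hspa8, Hspb1, Hsph1, Hsp90aa1, Hspd1, Dnajb1 and Bag3. They were taken by symbol from a table of read counts that lists 24411 genes in 69 RNA-sequencing libraries of mouse kidney, and all 10 were among the 21175 genes that passed the filter on low counts (at least 2 reads over the 69 libraries). The mice carried 1 conditional copy of Uprt, an enzyme that lets a cell build 4-thiouracil (4-TU) into the RNA it makes, together with a Cre driver, so the genotypes were Hoxb7Cre;UPRTf/+ and Atp6b1v1Cre;UPRTf/+. Hoxb7 drives Cre in the collecting duct, and the second driver, named for a proton pump subunit of intercalated cells, in a narrower set of its cells. All mice of these groups received 430 mg/kg of 4-TU 4 h before the kidney was taken, and the tagged RNA was biotinylated and pulled down. At 5.5 months of age the Hoxb7Cre pulldowns came from 4 female and 4 male controls, 3 females and 4 males with ischemia (iAKI, both renal pedicles clamped for 10 min and labeling 24 h later), and 4 females and 3 males with volume depletion (vAKI, 72 h of restricted food and water). The Atp6b1v1Cre pulldowns of the same age came from 4 female and 4 male controls, 3 females and 3 males with iAKI, and 3 females and 4 males with vAKI. Total kidney RNA of controls of both genotypes, labelled Untagged, gave 8 female and 8 male libraries of 5.5 months and 2 female and 3 male libraries of 3 months; the labels do not tie them to the mice of the pulldowns. The remaining controls, at 3 months of age, were 2 female Hoxb7Cre and 3 male Atp6b1v1Cre pulldowns.

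Heat shock proteins bind unfolded or damaged proteins and keep them from clumping until they refold or are degraded. HSF1 is the transcription factor that drives most of their induced expression: it is held inactive by chaperones in resting cells, is set free when unfolded proteins occupy them, and binds heat shock elements, arrays of the letters GAA and TTC in alternating orientation, in the promoters of its targets. The members differ in how they are used, since HSPA1A and HSPA1B are the strongly inducible HSP70 proteins and HSP90AA1 is the stress-induced form of HSP90. HSPA8 and HSPD1 are made in quantity in unstressed cells. Collecting duct cells of the inner medulla live at high and changing osmolality, a setting in which heat shock proteins are known to be abundant.

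The regulator Hsf1 lies on chr15:76477422-76501913 (+ strand, GRCm38, as for all positions here). The HSP70 genes Hspa1a (chr17:34969190-34972156, - strand) and Hspa1b (chr17:34956436-34959238, - strand) are neighbours, and Hspa8 lies on chr9:40800984-40810087 (+). Hsph1, an HSP110 protein that exchanges nucleotide on HSP70, lies on chr5:149614287-149636376 (-), and the HSP70 partners Dnajb1 and Bag3 lie on chr8:83608193-83612653 (+) and chr7:128523616-128546981 (+). Hspb1, a small heat shock protein, lies on chr5:135887919-135889563 (+), Hsp90aa1 on chr12:110690605-110702728 (-) and Hspd1, the mitochondrial HSP60, on chr1:55077835-55088243 (-).

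Promoter sequence from RefSeq (GRCm38.p6) was found for 7 of the 10 members. The 250 bases before the start site were searched on both strands for a pair of facing heat shock units, GAANNTTC or TTCNNGAA, where N is any base. Each of these motifs reads the same on both strands, and the 2 can share a unit. The 4 promoters with a match are shown because 3 of them belong to genes called changed in male Hoxb7Cre pulldowns after volume depletion, Hspa1b, Hspb1 and Hsph1, and the fourth, Hspa1a, is nearly the same sequence as Hspa1b. The matches are in capitals, and each sequence runs 5′ to 3′ toward the start site.
Hspa1a promoter, chr17:34972157-34972406, - strand: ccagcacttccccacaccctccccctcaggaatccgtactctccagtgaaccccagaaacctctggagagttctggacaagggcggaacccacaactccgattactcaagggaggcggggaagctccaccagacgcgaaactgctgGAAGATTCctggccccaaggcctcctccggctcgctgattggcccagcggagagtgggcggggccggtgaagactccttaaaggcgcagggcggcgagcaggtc
Hspa1b promoter, chr17:34959239-34959488, - strand: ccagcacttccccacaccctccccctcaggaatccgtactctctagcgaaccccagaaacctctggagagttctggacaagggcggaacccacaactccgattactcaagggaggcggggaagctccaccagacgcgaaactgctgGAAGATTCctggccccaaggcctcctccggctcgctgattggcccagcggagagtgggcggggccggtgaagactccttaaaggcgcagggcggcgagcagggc
Hspb1 promoter, chr5:135887669-135887918, + strand: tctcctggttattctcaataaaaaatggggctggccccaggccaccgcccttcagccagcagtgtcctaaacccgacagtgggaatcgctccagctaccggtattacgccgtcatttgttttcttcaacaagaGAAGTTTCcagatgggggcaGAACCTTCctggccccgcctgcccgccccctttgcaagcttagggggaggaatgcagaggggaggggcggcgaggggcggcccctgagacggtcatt
Hsph1 promoter, chr5:149636337-149636586, - strand: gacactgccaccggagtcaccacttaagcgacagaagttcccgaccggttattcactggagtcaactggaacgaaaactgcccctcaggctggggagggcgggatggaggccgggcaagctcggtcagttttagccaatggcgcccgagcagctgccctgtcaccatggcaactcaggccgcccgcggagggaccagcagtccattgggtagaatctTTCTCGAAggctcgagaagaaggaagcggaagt
The Hspa1a and Hspa1b windows differed at 3 of 250 bases, an identity of 98.8%, and each held 1 GAANNTTC match at the same distance from the start site. Hspb1 held 2 GAANNTTC matches, 117 and 97 bases before its start site, and Hsph1 held 1 TTCNNGAA match at 33 bases. Among 32851 promoters of the same length, GAANNTTC occurred in 6.69%, TTCNNGAA in 7.17% and either of them in 12.8%. These letters were not in the windows of Hspd1, Dnajb1 and Bag3, and no window of the 7 held a run of 3 alternating units, which 0.247% of all promoters held starting with GAA and 0.244% starting with TTC.

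The libraries held 12618062 to 30305464 counts, with a median of 20868430. The library numbers in the labels fall into 3 series, here called A, B and C, with 36, 21 and 12 libraries. All Hoxb7Cre libraries of injured mice are in series A, whereas only 2 of the 4 male and 1 of the 4 female Hoxb7Cre controls of 5.5 months are, so values within series A are given beside male and control results whose calls change there. Principal cell markers differed between the drivers. The summed level of 6 such genes was 2690 to 3440 CPM (counts scaled to library size) in male Hoxb7Cre controls and 782 to 804 CPM in male Atp6b1v1Cre controls. In the latter 6 intercalated cell genes summed to 706 to 934 CPM. No Hoxb7Cre sum of these is given here, so their difference between the drivers is not described. The pulldowns were not free of other cells, since 6 proximal tubule genes summed to 1890 to 4910 CPM in control pulldowns and to 11400 to 20900 CPM in total RNA. In bulk RNA, fewer cells of a type and less RNA per cell cannot be told apart. The reads were counted only where they mapped to 1 place, which makes genes with near-identical copies uncertain. Of all windows of 100 bases along the transcripts, 56.5% in Hspa1a, 49.9% in Hspa1b, 63.4% in Hspa8, 42.7% in Hspb1, 47.5% in Hsp90aa1 and 26.9% in Hspd1 occur exactly in another gene or pseudogene, mostly Hspa1a and Hspa1b in each other, and none does in Hsf1, Hsph1, Dnajb1 and Bag3. The labels number the libraries as replicates without stating that each is a separate mouse, so p-values measure the spread between these libraries. Results are log2 fold changes ± SE from the quasi-likelihood test of edgeR, adjusted over all 21175 genes by the Benjamini-Hochberg method, and a gene is called changed at an adjusted p under 0.05.

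The first comparison asks what the tagged RNA of control collecting duct held relative to the whole kidney. Levels per length used the summed length of all annotated exons of a gene, which is longer than a single transcript (for Hsf1 7099 bases, beside a transcript of 2104 bases), so the order of neighbours depends on that choice. On this scale the members of Hoxb7Cre control pulldowns (n = 10) ranged from 139 ± 20.1 CPM per kb (SD) for Hspa8 to 3.78 ± 0.226 for Hsf1. Hsp90aa1 (68.7 ± 12.9), Hspd1 (65.7 ± 9.36) and Hspa1b (58.3 ± 17.8) followed Hspa8 and lay within their spread of each other, as did Bag3 (44.5 ± 16.1) and Hsph1 (36.5 ± 6.74), and then Hspa1a (18.8 ± 5.78) and Dnajb1 (16.9 ± 4.41). Hspb1 lay at 4.53 ± 1.67 CPM per kb, next to Hsf1 and within its own spread of it. In total kidney RNA (n = 21) the order began instead with Hspd1 at 295 ± 67.7 and Hspa8 at 277 ± 47.7 CPM per kb. The inducible HSP70 gene Hspa1b was 58.3 CPM per kb in the Hoxb7Cre pulldown and 24.6 ± 7.35 in total RNA.

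In Hoxb7Cre control pulldowns, 4 members were higher than in total RNA, where 35.6% of all genes tested were called higher, and 5 were lower, against 31.1% of all genes. The higher ones were the inducible HSP70 genes Hspa1b, by 1.26 ± 0.14 (adjusted p = 8.04e-11), and Hspa1a, by 0.94 ± 0.14, with Bag3 by 0.69 ± 0.10 and Hsph1 by 0.37 ± 0.10. Within series A Bag3 was not called (0.05 ± 0.10, adjusted p = 0.708). The lower ones were led by the mitochondrial chaperonin gene Hspd1, at -2.05 ± 0.09 (adjusted p = 7.3e-25), followed by Hspb1 at -1.73 ± 0.20, Hspa8 at -0.92 ± 0.09, Hsf1 at -0.40 ± 0.08 and Hsp90aa1 at -0.31 ± 0.10. Dnajb1, a J-domain protein that delivers clients to HSP70, was at 54.2 CPM in the pulldown and 56.0 CPM in total RNA and was not called. Within series A it was lower by 0.46 ± 0.12 on the log2 scale (adjusted p = 0.00334), and in males alone by 0.34 ± 0.12 (adjusted p = 0.0218). The sign was the other way, without a call, within series B (0.09 ± 0.10, adjusted p = 0.475) and series C (0.245 ± 0.139, adjusted p = 0.163). Hsp90aa1 was -0.66 ± 0.16 within series A and -0.309 ± 0.095 within series B, but was not called within series C (-0.06 ± 0.18, adjusted p = 0.862). Hsph1 was not called within series B (0.24 ± 0.15, adjusted p = 0.196) or series C (0.33 ± 0.175, adjusted p = 0.136). In CPM, Hspd1 ran from 147 to 236 in the 10 Hoxb7Cre pulldowns and from 571 to 1049 in the 21 total libraries. The ranges did not overlap, and the total libraries themselves fell into separate ranges by sex, 571 to 640 CPM in 10 females and 849 to 1049 CPM in 11 males, a difference that was not part of a planned test. Hspa8 ran from 423 to 724 CPM in these pulldowns and from 904 to 1544 CPM in total RNA, again without overlap, whereas those of Hspb1 overlapped, since it reached 7.74 CPM in the pulldown and began at 6.53 CPM in total RNA.

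The Atp6b1v1Cre control pulldowns held 2 members that were higher than in total RNA, with 34.4% of all genes called higher, and 5 that were lower, with 29.4% of all genes called lower. The 5 lower members were the ones lower in Hoxb7Cre pulldowns, with Hspd1 at -2.05 ± 0.09, Hspb1 at -1.62 ± 0.19, Hspa8 at -0.93 ± 0.09, Hsf1 at -0.37 ± 0.07 and Hsp90aa1 at -0.37 ± 0.10; both comparisons share the 21 total libraries. Bag3, which hands HSP70 clients to autophagy, was higher by 0.58 ± 0.10 (adjusted p = 7.49e-07) and Hspa1b by 0.33 ± 0.14 (adjusted p = 0.039). Hspa1a at 0.28 ± 0.14 (adjusted p = 0.0828), Hsph1 at -0.15 ± 0.10 and Dnajb1 at -0.13 ± 0.10 were not called. Hspa1a was called within series A (0.42 ± 0.16, adjusted p = 0.0413) and series B (0.39 ± 0.15, adjusted p = 0.0369), but not within series C (0.03 ± 0.16, adjusted p = 0.934). Within series C the calls of Hspa1b (0.12 ± 0.11, adjusted p = 0.403) and Hsp90aa1 (-0.264 ± 0.135, adjusted p = 0.117) were lost. The pulldown differs from total RNA both in the cells that carry the driver and in how recently the RNA was made, and the parts of these cannot be told apart in either comparison. Among 70 other chaperone genes, 16 were higher and 44 lower in Hoxb7Cre pulldowns, where 35.6% of all genes were called higher and 31.1% lower. In Atp6b1v1Cre pulldowns 17 were higher and 43 lower, where 34.4% of all genes were called higher and 29.4% lower. All 8 genes of the TRiC chaperonin, which folds actin and tubulin, and all 7 mitochondrial chaperone and protease genes were lower in both.

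**Figure D1:**
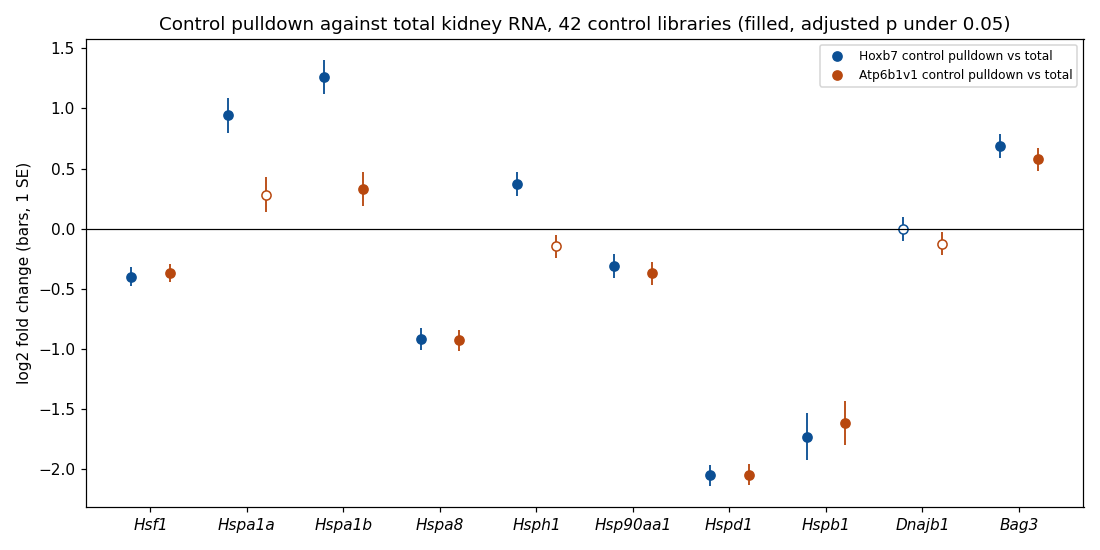
Log2 fold change (± 1 SE) of each heat shock gene in control pulldown RNA against total kidney RNA, for the Hoxb7Cre (10 libraries) and Atp6b1v1Cre (11 libraries) pulldowns and the 21 total libraries; filled symbols passed an adjusted p under 0.05. Hspd1 and Hspb1 are the lowest in both drivers, and Hspa1b is 1.26 in Hoxb7Cre against 0.33 in Atp6b1v1Cre.

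Between the drivers, 3 members were lower in Atp6b1v1Cre than in Hoxb7Cre control pulldowns, against 4.2% of all genes, and no member was higher, against 5.73% of all genes. Hspa1b was lower by 0.93 ± 0.17 on the log2 scale (adjusted p = 7e-05), Hspa1a by 0.66 ± 0.17 (adjusted p = 0.00581) and Hsph1 by 0.52 ± 0.11 (adjusted p = 0.000923). Hspa1b was 163 ± 49.8 CPM (SD, n = 10) in Hoxb7Cre and 81.1 ± 19.5 CPM (n = 11) in Atp6b1v1Cre, and the ranges of 83.2 to 211 and 54.4 to 128 CPM overlapped. The 3 Hoxb7Cre controls of series A held 83.2, 85.6 and 112 CPM of Hspa1b, whereas the 7 of series B and C held 177 to 211 CPM. For Hspa1a the 3 series A controls held 26.7, 32.9 and 37.8 CPM and the other 7 held 60.1 to 76.4 CPM, so for both genes the series did not overlap. Within series A the driver difference was -0.51 ± 0.20 for Hspa1b (adjusted p = 0.125) and -0.25 ± 0.20 for Hspa1a (adjusted p = 0.524), while within series B it was -1.01 ± 0.17 (adjusted p = 0.00267) and -0.69 ± 0.17 (adjusted p = 0.0262). Dnajb1 and Bag3 moved with the series in the same way: Dnajb1 was 34.6 to 43.8 CPM in Hoxb7Cre controls of series A and 48.5 to 77.5 CPM in the others, and Bag3 was 68.8 to 72.9 CPM against 94.1 to 188 CPM. Within series A, Bag3 was 0.05 ± 0.10 in Hoxb7Cre pulldowns against total RNA (adjusted p = 0.708) and was 0.42 ± 0.11 higher in Atp6b1v1Cre than in Hoxb7Cre pulldowns (adjusted p = 0.0153), a difference with the other sign from that of -0.11 ± 0.12 over all controls. What differed between the series of library numbers is not given in the labels, and its part in these values was not tested.

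In the Hoxb7Cre domain of males, volume depletion changed the most heat shock genes of the injury comparisons with controls run here. It also changed the largest share of all genes, so that count by itself is not a result about the members. Of the 10 members 4 rose, where 17.9% of all genes were called higher, and 2 fell, where 17.6% were called lower. The small heat shock protein gene Hspb1 rose 5.31-fold, the HSP70 partners Bag3 and Dnajb1 rose 2.22-fold and 2.08-fold, and the constitutive HSP70 gene Hspa8 rose 1.84-fold. Hsph1 fell to 0.468 and Hspa1b to 0.508 of the control level. Neither Hsf1 nor Hsp90aa1, Hspd1 and Hspa1a passed the test. The members' median log2 fold change was 0.10, beside 0.00 over all genes tested. With a change of at least 2-fold, 4 members were called (Hspb1, Bag3, Dnajb1 and Hsph1), against 16.4% of all genes, and for 6 members the vAKI and control libraries did not overlap, against 39.5% of all genes.

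The regulator Hsf1 was 24.4, 27.2, 27.5 and 27.9 CPM in male Hoxb7Cre controls and 16.4, 24.2 and 23.8 CPM after vAKI. All 3 vAKI libraries were below the controls, but the change of -0.31 ± 0.15 was not called (adjusted p = 0.103). Among the HSP70 genes, Hspa8, which folds new proteins and uncoats vesicles, was 423, 642, 579 and 638 CPM in controls and 972, 1028 and 1149 CPM after vAKI. Every vAKI library was above every control, and the change was 0.88 ± 0.17 (adjusted p = 0.000357). Of the partners of HSP70, Dnajb1 was 34.6, 43.8, 57.2 and 48.5 CPM in controls and 83.8, 103.8 and 98.5 CPM after vAKI, a change of 1.06 ± 0.18 (adjusted p = 8.85e-05). Bag3 was 68.8, 72.2, 94.1 and 105.2 CPM in controls and 154, 224 and 188 CPM after vAKI, a change of 1.15 ± 0.20 (adjusted p = 0.000111). For both partners the lowest vAKI library exceeded the highest control.

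Hsph1 went the other way from these partners. It was 264, 347, 188 and 294 CPM in controls and 110, 125 and 147 CPM after vAKI, a change of -1.10 ± 0.24 (adjusted p = 0.00103), again without overlap. Hspb1, which binds unfolding proteins and stabilizes actin filaments, was at a low level in controls, with 4.51, 4.21, 3.16 and 3.00 CPM. After vAKI its libraries held 10.9, 21.7 and 26.5 CPM, all above the controls, and the change of 2.41 ± 0.34 (adjusted p = 1.28e-05) was the largest among the members. Hsp90aa1, the stress-induced form of HSP90, was 210 to 276 CPM in controls and 225 to 308 CPM after vAKI, with a change of 0.14 ± 0.17 (adjusted p = 0.549). Hspd1 was 161 to 236 CPM in controls and 131 to 163 CPM after vAKI, with a change of -0.37 ± 0.15 (adjusted p = 0.0638). Within series A, which leaves 2 controls, Hspb1 at 2.19 ± 0.39, Bag3 at 1.43 ± 0.14, Dnajb1 at 1.30 ± 0.14, Hspa8 at 0.99 ± 0.19 and Hsph1 at -1.25 ± 0.18 were called in the same direction, and Hspd1 at -0.43 ± 0.15 was called as well (adjusted p = 0.0238).

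**Figure D2:**
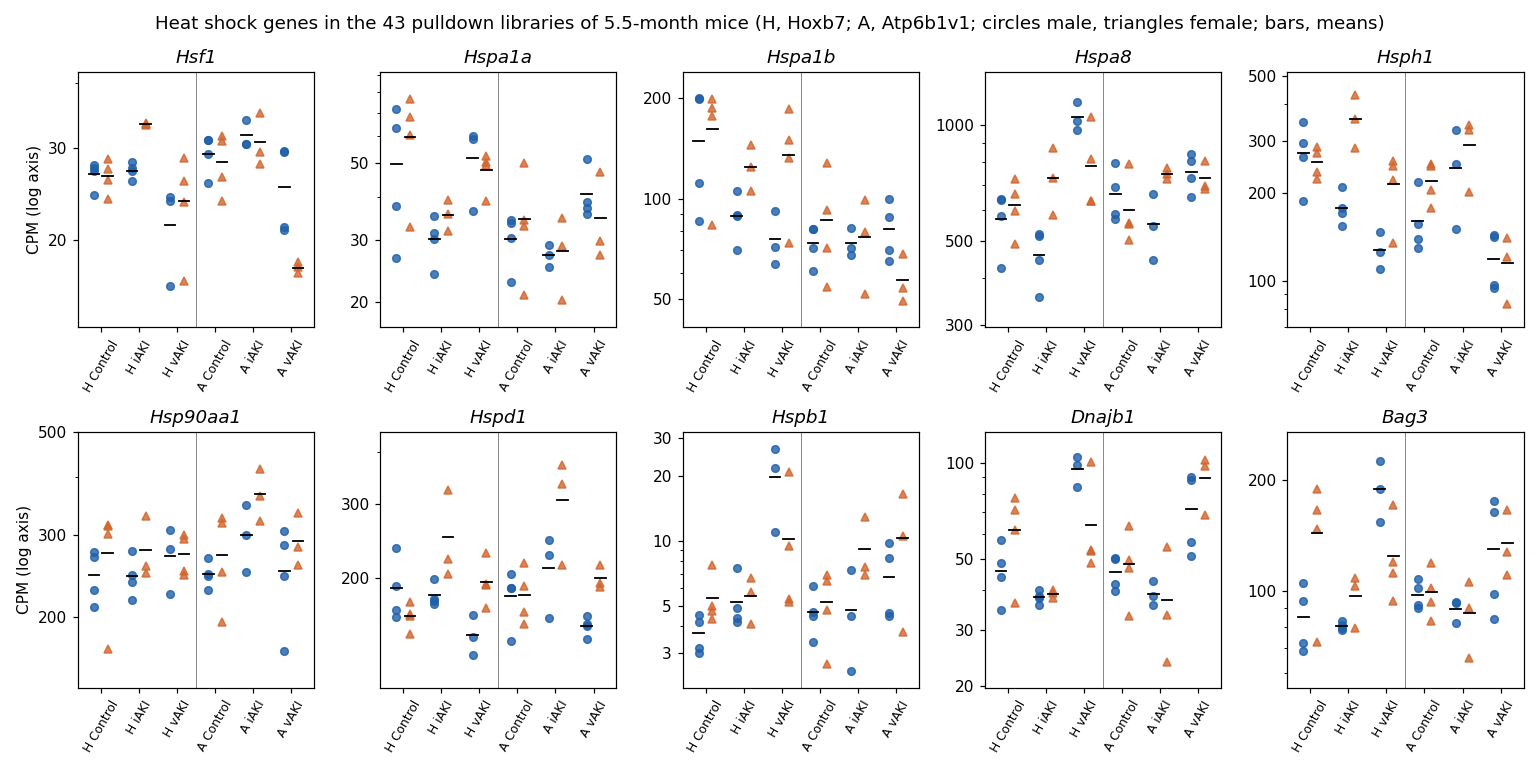
Level of each heat shock gene in CPM (log axes; bars, group means) in the 43 pulldown libraries of 5.5 months, 1 panel a gene, with 1 point a library, males and females shown apart and grouped by driver and treatment. In male Hoxb7Cre mice the 3 vAKI libraries of Dnajb1 (83.8 to 103.8 CPM) lie above the 4 controls (34.6 to 57.2 CPM), and those of Hsph1 (110 to 147 CPM) lie below theirs (188 to 347 CPM).

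Of the paired inducible genes Hspa1a and Hspa1b, whose promoters are nearly identical, Hspa1b passed the test after volume depletion and Hspa1a did not; the difference between them was not tested. In male Hoxb7Cre libraries Hspa1b was 85.6, 112, 199 and 200 CPM in controls and 63.6, 91.9 and 71.4 CPM after vAKI, a change of -0.98 ± 0.24 (adjusted p = 0.00257). Of the controls, only the 85.6 CPM library, of series A, lay within the vAKI range; the 112 CPM library of series A and both of series B lay above it. Hspa1a was 26.7, 37.8, 71.9 and 63.1 CPM in controls and 36.5, 58.8 and 60.1 CPM after vAKI, a change of 0.06 ± 0.25 (adjusted p = 0.929), with overlapping groups. Within series A the Hspa1b change was -0.37 ± 0.18 (adjusted p = 0.115) and that of Hspa1a was 0.70 ± 0.23 (adjusted p = 0.0238), so the Hspa1b call was lost and an Hspa1a call gained there. Within a library, Hspa1a made up 23.8% to 26.5% of the summed CPM of both genes in the male Hoxb7Cre controls, 25.1% to 26.3% after iAKI and 36.4% to 45.7% after vAKI. In male Atp6b1v1Cre libraries that share was 27.4% to 29.9% in controls, 26.2% to 28.6% after iAKI and 28.9% to 36.4% after vAKI, and in females of that driver 26.4% to 32.5% in controls and 33.6% to 40.9% after vAKI. In Hoxb7Cre females of 5.5 months it was 25.5% to 28.3% in controls and 21.3% to 34.6% after vAKI, so those groups overlapped, and 21.3% to 23.3% after iAKI, below those controls. The female controls of 3 months were at 22.4% and 24.9%. These shares are a description without a test, and rest on the reads that separate the copies.

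**Figure D3:**
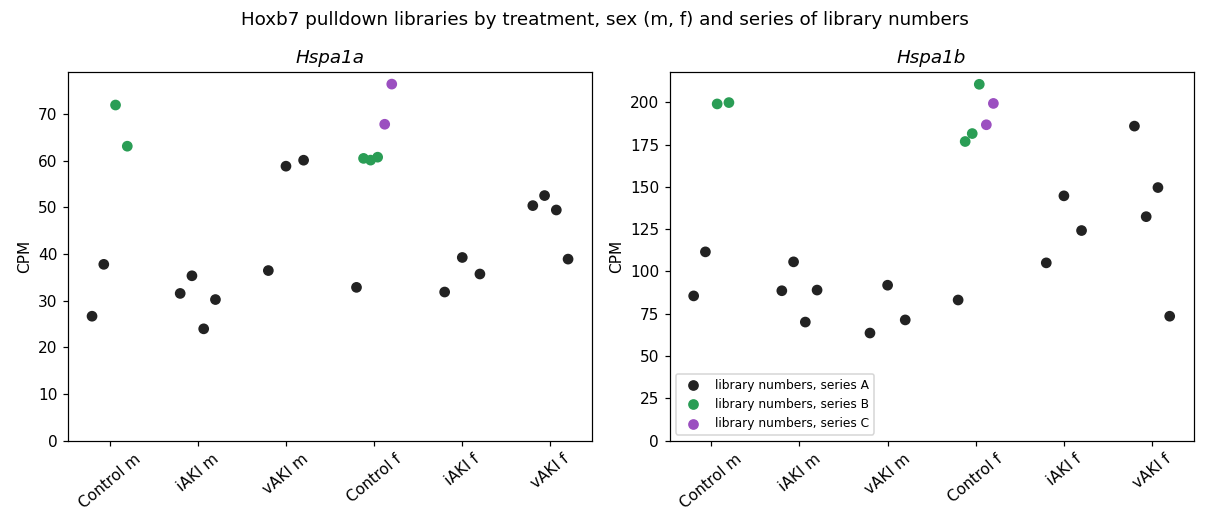
CPM of Hspa1a and Hspa1b in the Hoxb7Cre pulldown libraries, 1 point a library, by treatment and coloured by the series of library numbers (A, B or C). The controls of series A hold 26.7 to 37.8 CPM of Hspa1a and 83.2 to 112 CPM of Hspa1b, below the controls of series B and C, and all injured libraries are in series A.

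Ischemia left most heat shock genes of the male Hoxb7Cre domain within the spread of the controls 24 h later. No member rose, where 3.34% of all genes were called higher, and 1 member, Hspa1b, fell, where 2.79% were called lower. Hspa1b was 88.6, 105.7, 70.1 and 89.0 CPM after iAKI beside controls of 85.6, 112, 199 and 200 CPM, a change of -0.74 ± 0.22 (adjusted p = 0.0424). Leaving out 1 library removed this call in 7 of 22 fits, with an adjusted p of up to 0.153 without control replicate 5. The iAKI libraries lay at the level of the series A controls and below the series B ones, and within series A the change was -0.17 ± 0.17 (adjusted p = 0.607). Hspa1a at -0.71 ± 0.23 (adjusted p = 0.0754) and Hsph1 at -0.61 ± 0.22 (adjusted p = 0.0975) were not called. Hsph1 was 170, 177, 153 and 209 CPM after iAKI and 188 to 347 CPM in controls, and within series A it passed the test at -0.79 ± 0.16 (adjusted p = 0.00556). Dnajb1 was 38.4, 40.1, 36.03 and 37.8 CPM and Bag3 80.7, 82.8, 79.1 and 78.2 CPM after iAKI, values closer together than those of any other group of 4 here, and their changes of -0.26 ± 0.17 and -0.07 ± 0.19 were not called. No member changed by 2-fold with a call, against 2.3% of all genes, and no member had groups that did not overlap, against 15.9% of all genes. The members' median was -0.17, beside 0.00 over all genes, and 3 members had an unadjusted p under 0.05. In the same comparison 3 of 4 injured tubule genes (Lcn2, Havcr1, Krt20, Clu) were called higher.

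In the Atp6b1v1Cre domain of males, ischemia changed no heat shock gene by this test. Against 3.77% of all genes called higher and 4.74% called lower, 0 members were called, with 1 at an unadjusted p under 0.05. That gene was Hsph1, with 327, 251 and 150 CPM after iAKI and 217, 156, 130 and 139 CPM in controls, a difference of 0.58 ± 0.23 (adjusted p = 0.118). Without the third iAKI library, the only one of series B, the difference was 0.86 and was called (adjusted p = 0.0205). No member changed by 2-fold with a call, against 2.82% of all genes, none had groups that did not overlap, against 20.6%, and the median was 0.01. DESeq2 called no member in this comparison either.

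Volume depletion raised Dnajb1 in the Atp6b1v1Cre domain of males. Dnajb1 was the 1 member called higher, where 8.11% of all genes were, and no member was called lower, where 6.47% were. It was 41.7, 50.1, 39.7 and 50.3 CPM in controls and 51.3, 56.5, 88.0 and 90.5 CPM after vAKI, so the groups did not overlap, and the change was 0.67 ± 0.17 (adjusted p = 0.0103). The 2 vAKI libraries of series A lay just above the controls and the 2 of series B far above them. Within series A the change was 0.23 ± 0.15 (adjusted p = 0.391), and within series B it was 0.99 ± 0.15 (adjusted p = 0.000392). Bag3 showed the same split, with 91.3, 101.5, 89.6 and 107.5 CPM in controls and 83.8, 97.96, 176 and 164 CPM after vAKI, a difference of 0.43 ± 0.19 that was not called (adjusted p = 0.128). Within series B alone Bag3 was called at 0.79 ± 0.13 (adjusted p = 0.000938), Hspa8 at 0.52 ± 0.13 (adjusted p = 0.00887) and Hspb1 at 0.76 ± 0.23 (adjusted p = 0.0252). Hspa1a was 22.8, 33.8, 30.4 and 34.4 CPM in controls and 35.7, 51.5, 37.2 and 38.6 CPM after vAKI, without overlap but not called at 0.44 ± 0.23 (adjusted p = 0.221). For these 2 members the groups did not overlap, against 14.5% of all genes, no member changed by 2-fold with a call, against 5.15%, and the members' median was 0.18. Leaving out either series B vAKI library removed the Dnajb1 call, with an adjusted p of up to 0.0571.

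**Figure D4:**
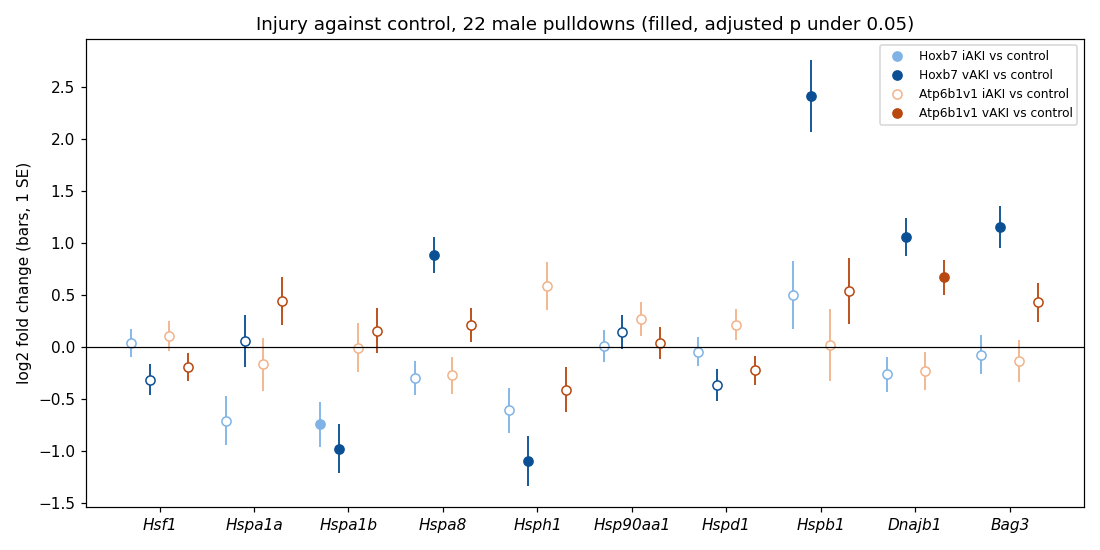
Log2 fold change against control (± 1 SE) of each heat shock gene in male pulldowns, for iAKI and vAKI in the Hoxb7Cre and Atp6b1v1Cre domains; filled symbols passed an adjusted p under 0.05. The vAKI values in Hoxb7Cre reach from -1.10 for Hsph1 to 2.41 for Hspb1, and 1 gene is filled in each of Hoxb7Cre iAKI and Atp6b1v1Cre vAKI.

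Whether a response differed between the drivers was tested directly as the difference of the fold changes, Atp6b1v1Cre minus Hoxb7Cre. After iAKI 1 member differed, against 7.79% of all genes: Hsph1 by 1.19 ± 0.32 (adjusted p = 0.0238), from -0.61 in Hoxb7Cre and 0.58 in Atp6b1v1Cre. After vAKI 2 members differed, against 4.2% of all genes. Hspb1 differed by -1.87 ± 0.47 (adjusted p = 0.023), since its change was 2.41 in Hoxb7Cre and 0.54 ± 0.32 in Atp6b1v1Cre. Hspa1b differed by 1.13 ± 0.32 (adjusted p = 0.0455), from -0.98 and 0.16, and lost this call in 14 of 22 fits that left out 1 library (adjusted p of up to 0.12). Hspb1 lost it in 3, with an adjusted p of up to 0.0952 without Hoxb7Cre vAKI replicate 7, and Hsph1 after iAKI in 4, with up to 0.0953 without Atp6b1v1Cre iAKI replicate 1. The differences of Bag3 at -0.72 ± 0.27 (adjusted p = 0.144), Hspa8 at -0.67 ± 0.24 (adjusted p = 0.112) and Dnajb1 at -0.39 ± 0.25 (adjusted p = 0.418) were not called over all libraries. Within series A, which leaves 2 male controls of each driver and 2 Atp6b1v1Cre vAKI males, they were called. The values were -1.52 ± 0.21 for Bag3 (adjusted p = 0.000223), -1.10 ± 0.27 for Hspa8 (adjusted p = 0.0116) and -1.07 ± 0.20 for Dnajb1 (adjusted p = 0.002). Hsph1 was called there in the other direction at 0.86 ± 0.26 (adjusted p = 0.0353), while Hspa1b was 0.78 ± 0.27 (adjusted p = 0.0579). The Atp6b1v1Cre changes after vAKI were -0.09 for Bag3, -0.11 for Hspa8 and 0.23 for Dnajb1 within series A. Within series B, which holds no injured Hoxb7Cre library, they were 0.79, 0.52 and 0.99.

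The 2 injuries were also compared with each other, which needs no control. In Hoxb7Cre males 5 members were lower after iAKI than after vAKI and none higher, where 33.3% of all genes were called in either direction: Dnajb1 by 1.32 ± 0.18 on the log2 scale (adjusted p = 9.31e-06), Hspa8 by 1.18 ± 0.17 (adjusted p = 1.98e-05), Bag3 by 1.23 ± 0.20 (adjusted p = 6.67e-05), Hspb1 by 1.91 ± 0.34 (adjusted p = 0.000148) and Hspa1a by 0.77 ± 0.25 (adjusted p = 0.0207). These 7 libraries are all in series A. Hsph1 went the other way, with 153 to 209 CPM after iAKI above 110 to 147 CPM after vAKI, and was not called over all males (0.49, adjusted p = 0.12) but was within series A (0.46 ± 0.15, adjusted p = 0.0202). Hspa1b, at 70.1 to 105.7 CPM after iAKI and 63.6 to 91.9 CPM after vAKI, overlapped and was not called. In Atp6b1v1Cre males 3 members were lower after iAKI, Dnajb1 by 0.90 ± 0.19 (adjusted p = 0.000878), Bag3 by 0.57 ± 0.20 (adjusted p = 0.0387) and Hspa8 by 0.49 ± 0.18 (adjusted p = 0.0403), and 2 were higher, Hsph1 by 1.00 ± 0.23 (adjusted p = 0.00243) and Hspd1 by 0.43 ± 0.15 (adjusted p = 0.0312), where 29.3% of all genes were called in either direction. Within series A Bag3 at -0.07 ± 0.15 (adjusted p = 0.808) and Hspa8 at -0.20 ± 0.20 (adjusted p = 0.51) were not called. Hspa1a at -0.75 ± 0.25 and Hsp90aa1 at 0.64 ± 0.19 were called within series A, though not over all males. Of the male Atp6b1v1Cre iAKI libraries only replicate 5 is in series B, so effect sizes alone are given for that series. They were 0.02 for Hspd1, -1.01 for Hspb1 and 0.54 for Hsf1.

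Females were tested on their own and against males. In Hoxb7Cre females no member was called after iAKI, against 3.14% of all genes, with 5 at an unadjusted p under 0.05, and none after vAKI, against 0.109% of all genes, with 1 at an unadjusted p under 0.05. The 4 female vAKI libraries did not behave as 1 group. Dnajb1 was 53.2, 53.0, 48.6 and 100.8 CPM in them and 36.5, 77.5, 71.4 and 61.6 CPM in the female controls, and Bag3 was 119, 112, 94.1 and 171 CPM beside controls of 72.9, 188, 166 and 147 CPM. Replicate 1, the 1 female control of series A, held the 36.5 and 72.9 CPM, below all 4 vAKI libraries, and the other controls are in series B and C. Among the vAKI libraries, replicate 5 was the highest of the 4 in both genes and in Hspb1 (20.8 CPM, the others 5.19 to 9.44 CPM), and the lowest in Hsf1 (16.7 CPM, the others 23.6 to 28.8 CPM), in Hsph1 (134 CPM, the others 220 to 256 CPM) and in Hspa1b (73.6 CPM, the others 132 to 186 CPM). The difference between the sexes, female minus male, was called for Bag3 at -1.37 ± 0.33 (adjusted p = 0.00639) and Dnajb1 at -1.02 ± 0.35 (adjusted p = 0.0408) after Hoxb7Cre vAKI, against 16% of all genes, and for Hsph1 at 1.09 ± 0.33 (adjusted p = 0.0306) after Hoxb7Cre iAKI, against 10.5% of all genes. With the series as covariate these were -1.34 ± 0.29, -0.91 ± 0.29 and 1.07 ± 0.29, and Hsph1 after vAKI was called as well at 0.82 ± 0.29 (adjusted p = 0.0445). That covariate is a shift per series shared by both drivers, so it cannot remove a series shift that differs between the drivers. With 1 female control in series A, no value within it is given. Hsph1 after iAKI was 284, 357 and 429 CPM in females, beside female controls of 222 to 287 CPM, whereas the male iAKI libraries lay at 153 to 209 CPM.

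In Atp6b1v1Cre females Dnajb1 rose and Hsf1 and Hsph1 fell after volume depletion. After vAKI 3 members were called, against 18% of all genes. Dnajb1 was 97.4, 68.6 and 101.8 CPM after vAKI and 46.7, 33.1, 63.3 and 49.5 CPM in controls, a change of 0.89 ± 0.29 (adjusted p = 0.0392). Hsf1 was 17.8, 17.3 and 18.2 CPM beside controls of 31.01, 31.7, 26.4 and 23.8 CPM, a change of -0.67 ± 0.17 (adjusted p = 0.0125), and Hsph1 was 121, 140 and 83.4 CPM beside 177, 249, 247 and 205 CPM, a change of -0.93 ± 0.24 (adjusted p = 0.0129). After iAKI Hspd1 was the 1 member called, against 2.66% of all genes, with 336, 373 and 215 CPM and controls of 155 to 217 CPM, a change of 0.74 ± 0.19 (adjusted p = 0.0411). The difference between the sexes was called for no member after either injury, against 0% of all genes for iAKI and 0% for vAKI, with 2 members and 1 member at an unadjusted p under 0.05, and DESeq2 called no member either. In controls, females did not differ from males by a call in any member, against 3.08% of all genes in Hoxb7Cre and 1.52% in Atp6b1v1Cre, with 1 and 0 members at an unadjusted p under 0.05. Bag3 came nearest in Hoxb7Cre, at 0.76 ± 0.23 (adjusted p = 0.0527), and DESeq2 called 1 member in that comparison.

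Dnajb1 and Bag3 varied together over the pulldowns, and with the immediate early genes, which any of several acute stimuli switches on within minutes. Over the 48 pulldown libraries the Pearson r of the log2 CPM of Dnajb1 and Bag3 was 0.871, that of Hspa1a and Hspa1b 0.79, and that of Hsf1 and Hsph1 0.646. With the log2 of the summed CPM of 7 immediate early genes (Fos, Fosb, Jun, Junb, Egr1, Atf3, Ier2), r was 0.903 for Dnajb1 and 0.782 for Bag3, and -0.807 for Hsf1 and -0.641 for Hsph1. With the group means of driver, treatment and sex removed it was 0.79 for Dnajb1, 0.657 for Bag3, -0.598 for Hsf1 and -0.613 for Hsph1. Without that removal Hspa1b and Hsp90aa1 were near 0, at -0.076 and 0.053, and Hspb1 was at 0.577, Hspa8 at 0.486, Hspa1a at 0.446 and Hspd1 at -0.535. With it Hspb1 was at 0.619, Hspa8 at 0.425, Hspa1a at 0.331 and Hspd1 at -0.52. These values are descriptions over libraries that share groups and scaling, and carry no test. The summed immediate early level in males of 5.5 months had a median of 292 and a highest value of 377 CPM in Hoxb7Cre controls, whose range contained the iAKI libraries (132 to 183 CPM), and ran from 1400 to 2340 CPM after vAKI, and all 7 of the genes were called higher after vAKI and none after iAKI. It was 86.1 to 338 CPM in male Atp6b1v1Cre controls of that age and 331 to 1660 CPM after vAKI, with 6 of 7 called, and 336, 916 and 129 CPM in the 3 controls of 3 months. In the female Hoxb7Cre vAKI libraries, which split for Dnajb1, it ran from 185 to 4110 CPM with a median of 364 CPM, and in the female Hoxb7Cre controls of 5.5 months from 471 to 1390 CPM, above the male controls; the 2 of 3 months held 423 and 340 CPM. The share of these genes in the changes of the heat shock genes was not tested. By the same measure, the genes most like Dnajb1 among 15130 were Zfp622 (0.957), Atf4 (0.95), Rnf113a2 (0.949), Gm29766 (0.949) and Yrdc (0.948). Those most like Hspa8 were Fh1 (0.827), Slc25a3 (0.798), Napa (0.785), Marcksl1 (0.78) and Dnajb2 (0.779), and those most like Hsf1 were BC037034 (0.895), Acd (0.89), Rfng (0.886), Hoxc6 (0.884) and Taf6 (0.876).

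**Figure D5:**
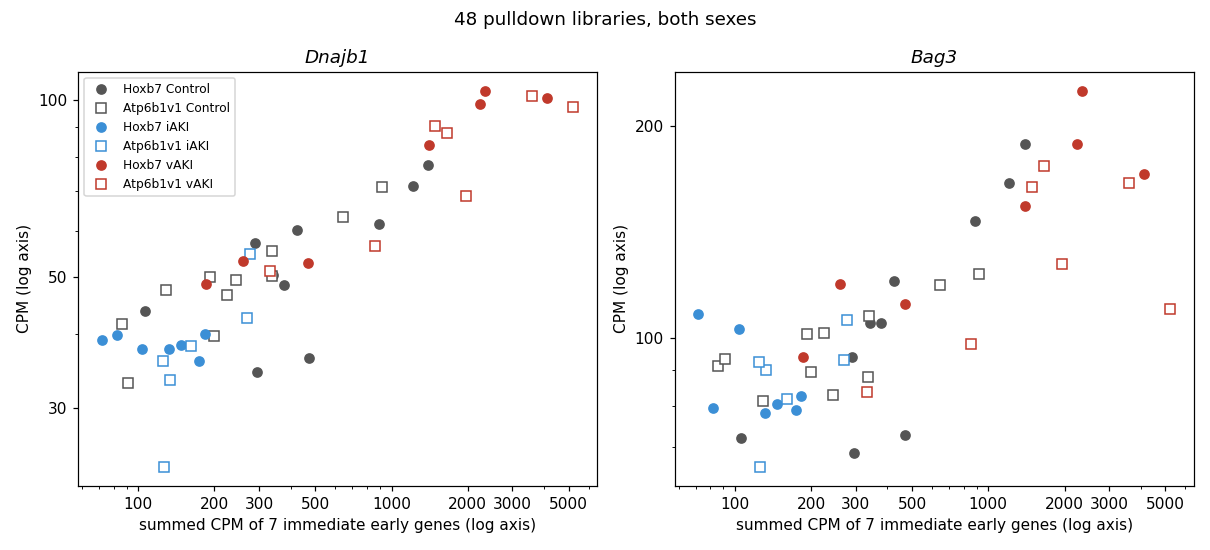
CPM of Dnajb1 and of Bag3 (y axes, log scale) against the summed CPM of 7 immediate early genes (x axis, log scale) in the 48 pulldown libraries, 1 point a library, by driver and treatment. Both rise along the x axis, with a Pearson r of 0.903 for Dnajb1 and 0.782 for Bag3, and the male Hoxb7Cre vAKI libraries lie at 1400 to 2340 CPM on the x axis.

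Other markers moved in the same comparisons. All 6 principal cell genes were called lower in male Hoxb7Cre libraries after vAKI, with sums of 1110 to 1210 CPM beside 2690 to 3440 CPM in controls, and 5 of 6 after iAKI, with sums of 1010 to 1250 CPM. After vAKI in Atp6b1v1Cre males 3 of 6 intercalated cell genes were lower, with sums of 456 to 604 CPM beside 706 to 934 CPM, and 4 of 6 were lower in Hoxb7Cre males. Of 4 thick ascending limb genes 3 were lower after vAKI in Hoxb7Cre males (791 to 884 CPM beside 1380 to 2370 CPM) and 2 in Atp6b1v1Cre males. All 6 brown and white fat genes were lower in Hoxb7Cre males after both injuries, with a median log2 change of -2.38 after iAKI and -1.64 after vAKI, and 3 of 6 in Atp6b1v1Cre males after vAKI. Their part in the heat shock gene values was not tested.

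The wider chaperone families were as mixed as the members. Of 70 other chaperone genes, chosen by family, 15 rose and 16 fell in Hoxb7Cre males after vAKI, against 17.9% and 17.6% of all genes. Their median was -0.08 beside 0.00 over all genes. After iAKI in these males 0 rose and 1 fell (Hspa2, a testis-rich HSP70, at -0.75 ± 0.20), where 3.34% of all genes rose and 2.79% fell. In Atp6b1v1Cre males 7 rose and 4 fell after vAKI, where 8.11% of all genes rose and 6.47% fell, and 5 rose and 0 fell after iAKI, where 3.77% rose and 4.74% fell. After Hoxb7Cre vAKI 5 of 12 J-domain cochaperone genes rose, led by Dnajb5 at 2.06 ± 0.29 and Dnajb4 at 1.31 ± 0.21, and 2 fell, led by Dnaja3, a mitochondrial one, at -1.10 ± 0.20. Of 8 cytosolic HSP70 and HSP110 genes 2 rose, Hspa14 at 1.35 ± 0.17 and Hspa2 at 0.93 ± 0.21, and 3 fell, led by Hspa4l, an HSP110 gene as Hsph1 is, at -1.45 ± 0.16. Of 7 other small heat shock protein genes 2 rose, Cryaa at 2.23 ± 0.64 from under 1 CPM and Hspb8, which works with BAG3, at 1.51 ± 0.29. In the list of BAG proteins and nucleotide exchange factors Bag2 rose by 0.78 ± 0.16, and Bag4 at -0.71 ± 0.16 and Bag1 at -0.48 ± 0.14 fell. None of 11 genes of HSP90 and its cochaperones rose and 4 fell, led by Chordc1 at -0.71 ± 0.16 and Fkbp4 at -0.57 ± 0.18. Of 8 TRiC subunit genes 3 fell, Cct5 at -0.44 ± 0.12, Cct6a at -0.35 ± 0.10 and Cct3 at -0.34 ± 0.12. In the ER list Hspa5, the ER HSP70, rose by 0.86 ± 0.19 and Canx fell by 0.48 ± 0.16, and 2 of 7 mitochondrial genes rose, Lonp1 at 0.61 ± 0.13 and Grpel1 at 0.44 ± 0.10. Of the heat shock factor list Hsf5 at 1.40 ± 0.44 and Hsf4 at 1.39 ± 0.32 rose from levels under 2 CPM, and Hsbp1, which binds HSF1 trimers, fell by 0.49 ± 0.14.

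In Atp6b1v1Cre males after vAKI the J-domain genes with the largest changes were Dnajb5 at 0.91 ± 0.27, Dnajb4 at 0.81 ± 0.19 and Dnaja3 at -0.68 ± 0.18, and of the HSP70 and HSP110 list Hspa4l was at -0.60 ± 0.15, Hspa2 at 0.72 ± 0.20 and Hspa14 at 0.56 ± 0.15. The small heat shock protein genes Cryaa at -2.07 ± 0.57, Hspb2 at 1.60 ± 0.47 and Hspb7 at -0.78 ± 0.22 were called as well, and Grpel1 at 0.29 ± 0.10. Cryaa and Hspb2 were at low levels. The Cryaa mean was 2.55 CPM in controls and 0.629 CPM after vAKI, with overlapping groups, and that of Hspb2 was 0.214 and 0.666 CPM. After iAKI in that driver 3 of 8 TRiC genes rose, Cct3 at 0.42 ± 0.11, Cct7 at 0.36 ± 0.11 and Cct2 at 0.34 ± 0.11, together with Bag1, a nucleotide exchange factor of HSP70, at 0.60 ± 0.13 and Cryab, the αB-crystallin gene, at 1.01 ± 0.24. The driver difference after iAKI was called for Hspbp1 at 1.00 ± 0.24, Bag1 at 0.77 ± 0.18, Cct4 at 0.53 ± 0.15 and Cct2 at 0.51 ± 0.14. After vAKI it was called for Hspa4l at 0.85 ± 0.21, Hspa14 at -0.79 ± 0.23, Cryaa at -4.30 ± 0.86 and Hspb8 at -1.42 ± 0.40. Cryaa was low in Hoxb7Cre males too, with means of 0.379 CPM in controls and 1.77 CPM after vAKI.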

How the data were processed

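RNA was measured by sequencing in 69 mouse kidney libraries. The authors deposited raw counts per gene; the study's methods and the submitters' processing notes name CASAVA 1.8.2, Trimmomatic 0.36, STAR 2.5.3a, mm10 and HTSeq 0.6.1p2, and the annotation version is not given in the sources used here. Default counting of unique reads can lower genes with near-identical copies. Groups came from the labels. Counts were kept for genes with at least 2 reads over the 69 libraries, scaled by TMM and tested with edgeR 4.0.16 (limma 3.58.1, R 4.3.3), with Benjamini-Hochberg adjustment over 21175 genes and a threshold of 0.05. CPM values use TMM scaling over all libraries. Injury was tested within 22 male pulldowns of 5.5 months (16 residual degrees of freedom), pulldown against total RNA within 42 controls, sexes within 43 pulldowns and females alone within 21. The tests were checked on simulated data. Alternatives were other scaling and filters, DESeq2 1.42.0, the study's fold threshold (log2 of 1), other sample sets, the series of library numbers, the replicate number as a block and leaving out libraries; values within a series were added after seeing the data. Same-numbered males did not deviate together (mean correlation -0.114 over 2 Hoxb7Cre iAKI and control pairs, -0.008 over 3 Hoxb7Cre iAKI and vAKI pairs; the single pairs were at -0.044, -0.314 and, for Atp6b1v1Cre iAKI and vAKI, 0.154), so the numbers were not taken as pairs. The members and gene lists were chosen with earlier results of these data known. All 10 members are named; of other chaperones, up to 3 called genes per list and comparison with the largest change and a mean of at least 10 counts, and the 5 genes most correlated with Dnajb1, Hspa8 and Hsf1. Figures used Python 3.11.15, pandas 2.3.3 and matplotlib 3.10.9.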

Additional observations from a re-analysis of the deposited data

Results flagged for a closer look

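A library far from the rest of its group was looked for in 70 pairs of a gene and a group of at least 4 libraries, where chance marks about 1 in 20. Hsp90aa1 was 170.5 CPM in replicate 1 of the female Hoxb7Cre controls and 302 to 315 CPM in the other 3, and that replicate is the group's library of series A. Dnajb1 was 100.8 CPM in replicate 5 of the female Hoxb7Cre vAKI libraries and 48.6 to 53.2 CPM in the others.

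The effect of an injury differed between drivers (Atp6b1v1Cre minus Hoxb7Cre, edgeR with Benjamini-Hochberg adjustment) for Hsph1 after iAKI by 1.193 (adjusted p = 0.0238), for Hspa1b after vAKI by 1.13 (adjusted p = 0.0455) and for Hspb1 after vAKI by -1.872 (adjusted p = 0.023). In the Hoxb7Cre domain it differed between the sexes (female minus male) for Hsph1 after iAKI by 1.092 (adjusted p = 0.0306), for Bag3 after vAKI by -1.374 (adjusted p = 0.00639) and for Dnajb1 after vAKI by -1.016 (adjusted p = 0.0408). Without vAKI replicate 5 the Dnajb1 difference was -1.33 (adjusted p = 0.00263), and without control replicate 6 its adjusted p was 0.105.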

How the results depend on the processing

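Counts are members called of 10. The share of all genes called differs between fits, so here and below a count by itself is not a result about the members. For Hoxb7Cre iAKI (1) they were 2 with DESeq2, 0 with the study's fold threshold (2.3% of all genes) and 0 in females (3.14%). For Hoxb7Cre vAKI (6) they were 3 with both sexes and 0 in females, where only 0.109% of all genes were called. For Atp6b1v1Cre iAKI (0) they were 1 with both sexes, in females (2.66% of all genes) and within series A. For Atp6b1v1Cre vAKI (1) they were 0 with the fold threshold (5.15% of all genes), with only the groups compared and within series A. In that comparison they were 3 with both sexes and in females (18% of all genes), and 4 within series B. The driver difference gave 0 after iAKI (1) with both sexes and in females, and after vAKI (2) 0 with both sexes and in females, 1 with only the groups compared, and 5 with the series as covariate and within series A. Hoxb7Cre iAKI against vAKI (5) gave 0 in females, and Atp6b1v1Cre iAKI against vAKI (5) gave 0 with the fold threshold and 3 with only the groups compared. Against total RNA, Hoxb7Cre (9) gave 3 and Atp6b1v1Cre (7) gave 2 with the fold threshold, and the latter 4 in females. The drivers' controls (3) gave 0 with the fold threshold and 1 in females and within series C. The sex difference gave 2 after Hoxb7Cre iAKI (1) with filterByExpr, DESeq2 and only that driver, and 4 after vAKI (2) with only that driver. Hoxb7Cre control females against males (0) gave 1 with filterByExpr and DESeq2. The cause was not tested.

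With the replicate block, members called were 0 for Hoxb7Cre iAKI, 3 for Atp6b1v1Cre vAKI, 0 for both driver differences and 0 for both Hoxb7Cre sex differences; it left 6 for Hoxb7Cre vAKI. The numbers do not pair the samples.

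With 1 library left out, members called ran from 0 to 2 for Hoxb7Cre iAKI, 6 to 7 for Hoxb7Cre vAKI, 0 to 1 for Atp6b1v1Cre iAKI, 0 to 2 for Atp6b1v1Cre vAKI, 0 to 2 and 0 to 3 for the driver difference after iAKI and vAKI, 4 to 5 and 2 to 6 for iAKI against vAKI in Hoxb7Cre and Atp6b1v1Cre, 0 to 2 and 1 to 6 for the sex difference after Hoxb7Cre iAKI and vAKI (6 without vAKI replicate 5), 0 to 0 for both Atp6b1v1Cre sex differences, and 0 to 1 and 0 to 0 for control females against males in Hoxb7Cre and Atp6b1v1Cre.

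The direction turned in 6 member values that passed the threshold in either fit. In females Bag3 after Hoxb7Cre vAKI was -0.21, the driver difference was -0.11 for Hsph1 after iAKI, -0.33 for Hspa1b and 0.08 for Hspb1 after vAKI, and Hspa8 in Atp6b1v1Cre iAKI against vAKI was 0.018. Within series A Bag3 in Atp6b1v1Cre against Hoxb7Cre controls was 0.42. Of the other member values 60 gained and 88 lost a call without turning; values that passed in neither fit also changed sign in places, such as Bag3 after Atp6b1v1Cre vAKI, 0.43 over all males and -0.09 within series A.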
